A study of Mus musculus with 8 samples.

Results

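Transcripts of 10 genes of the piRNA pathway were measured in fully grown germinal vesicle (GV) oocytes that lack the CCR4-NOT deadenylases CNOT7 and CNOT8. The genes were Piwil1, Piwil2, Piwil4, Mov10l1, Tdrd9, Ddx4, Tdrd1, Tdrkh, Asz1 and Mael. They were chosen by name for their known role in transposon defence, with earlier results of these data known. All 10 were found among the 46078 genes of the count table. The comparison asked how the RNA of each gene differed between CNOT7&8 KO and Zp3-Cre control oocytes, with 4 RNA-seq libraries per group and 100 oocytes in each library. KO oocytes came from Cnot7 fl/fl, Cnot8 fl/fl females carrying the Zp3-Cre transgene, in which the Zp3 promoter drives Cre in growing oocytes, and control oocytes came from females carrying Zp3-Cre, so both groups had the recombinase. Deletion therefore starts only once an oocyte has begun to grow, and RNA made before that time had been exposed to both deadenylases. Per the study's methods, the females were 4 weeks old and primed with pregnant mare serum gonadotropin, and cumulus cells were removed from the oocytes. The labels do not say whether the libraries of a group came from different animals, so p-values measure the spread between these libraries, which may be technical in part.

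PIWI-interacting RNAs (piRNAs) are short germline RNAs that guide PIWI proteins to transposon transcripts, which are cut in the cytoplasm or silenced by DNA methylation at their source. The proteins that make piRNAs, among them RNA helicases and Tudor domain proteins, gather in the nuage, a perinuclear and mitochondria-associated granule of germ cells. In mice, loss of these genes blocks spermatogenesis, while females are mostly fertile. Mouse oocytes also restrain transposons with endogenous siRNAs made by an oocyte form of Dicer. CNOT7 and CNOT8 are alternative deadenylase subunits of CCR4-NOT, which also holds CNOT6 or CNOT6L. Per the paper, CNOT6 and CNOT6L join the complex only through CNOT7 or CNOT8. It therefore takes the KO to remove all deadenylase activity of the complex, although free CNOT6 or CNOT6L remains. The paper describes the targets of the catalytic subunits as largely, but not fully, shared. Shortening of poly(A) tails can start mRNA decay, and the paper proposes that it also suppresses translation in oocytes.

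Total counts ranged from 8639444 to 44092144 per library, and 3 counts, taken as the floor of detection, corresponded to 0.0802 to 0.326 CPM. CPM is the usual unit of counts relative to the library total, here with the total scaled by the TMM method of edgeR, which assumes that most genes do not change. These floors cover counting error only. Of the targeted genes, Cnot8 fell from 168 to 35.2 CPM (log2 fold change -2.25, SE 0.12, adjusted p = 8.2e-08), and Cnot7 was at 933 CPM in control and 719 CPM in KO (log2 fold change -0.38, SE 0.11, adjusted p = 0.0105), without overlap between the groups for either gene. RNA from a gene lacking some exons can still be counted, so the Cnot7 value alone checks the label weakly. That value did not pass under 2 of the other scalings (log2 fold changes of -0.093 and -0.12). At the protein level, the paper reports by immunoblotting that both CNOT7 and CNOT8 were depleted in KO oocytes. The 8 oocyte markers examined summed to between 15998 and 18431 CPM in control and between 13040 and 15259 CPM in KO libraries. None passed both thresholds, but 4 of the 8 (Zp1, Zp3, Ooep and Figla) were lower and 0 higher at an adjusted p of at most 0.05 with edgeR. Over all genes tested, 24.1% were lower and 31.2% higher at that adjusted p. The median log2 fold change of the oocyte markers was -0.32, with -0.88 for Ooep as the lowest and -0.072 for Gdf9 as the highest. The 10 granulosa markers summed to between 79.0 and 114 CPM in control and between 95.4 and 181 CPM in KO, and 4 of the 9 that could be tested (Fshr, Inha, Kitl and Gja1) passed both thresholds as higher in KO, against 23.8% of all genes tested. In KO library 4, Inha (4.77 CPM) lay within the control range and Gja1 (10.8 CPM) below control library 1 (12.9 CPM). Cyp19a1, the granulosa marker with the highest mean in control, was instead lower in every KO library, at 58.4 CPM in control and 31.3 CPM in KO (log2 fold change -0.90, SE 0.16, adjusted p = 0.000507 with edgeR). In KO the means of Kitl (43.4 CPM) and Gja1 (32.5 CPM) were above that of Cyp19a1. The 7 blood and immune markers summed to between 0.935 and 2.32 CPM in control and between 3.26 and 5.12 CPM in KO, and of the 3 that could be tested 2 passed as higher, Cd68 (log2 fold change 1.46, no overlap) and Ptprc (2.53, with overlap). The globin genes Hba-a1, Hbb-bs and Hbb-bt were at 0 in every library. The part of other cells in the values below was not tested.

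Deadenylation in oocytes is coupled to short elements of the 3′UTR, so these were read from the reference for the members. The cytoplasmic polyadenylation element (CPE), bound by CPEB proteins, was searched as TTTTAT on the transcript strand in the longest annotated 3′UTR. It was found in 4 of the 10 members, Piwil1, Piwil2, Ddx4 and Asz1, against 56.2% of 15125 genes with a 3′UTR of at least 50 bases. These 4 genes include both members whose RNA was higher in KO and 2 whose RNA was lower, so their sites are printed for comparison, with the element in capitals and 11 bases on each side.
Piwil1, chr5:128754946-128754973, plus strand: actgaccataaTTTTATttaatagtttt
Piwil2, first site, chr14:70374180-70374207, minus strand: tggcagtggaaTTTTATgtttgcatttt
Piwil2, second site, chr14:70374083-70374110, minus strand: tggtgcatgccTTTTATcccagcacttg
Ddx4, first site, chr13:112598876-112598903, minus strand: gaagaaagagtTTTTATttttaaaattt
Ddx4, second site, chr13:112598372-112598399, minus strand: caaatgtttgcTTTTATaatatacagat
Asz1, chr6:18051049-18051076, minus strand: gtttattacatTTTTATgttcctttcaa
Coordinates are those of GRCm38. The second Ddx4 site ends 50 bases before the annotated end of the transcript and the Asz1 site 96 bases before it, while the Piwil1 site lies 512 bases, the first Ddx4 site 554 bases and the Piwil2 sites 1714 and 1617 bases from the end. The PUMILIO element TGTANATA was in none of the 10 members (25.7% of the 15125 genes), and the AU-rich pentamer ATTTA was in 7 of 10 (69.8%). A match is a run of letters and does not show that a protein binds there. The paper linked the CPE to translation and protein level, which RNA levels do not measure.

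The promoters of germline genes are often rich in CpG and held silent in other tissues by a complex of E2F6, MGA and MAX, whose E-box is CACGTG, while A-MYB (Mybl1) activates piRNA pathway genes in spermatocytes. RefSeq promoters of GRCm38.p6, 250 bases before to 50 bases after a start site, were listed for 9 of the 10 members in 12 windows. The member windows held a median of 19 CpG, against 7 in all 32851 windows. CACGTG was found in 7 of the 12 windows, from 6 genes, against 7.15% of all windows, and it reads the same on both strands. Overlapping windows of Tdrd1 held the same site. The motif itself contains a CpG, and the share over all windows was not matched for CpG content, so an enrichment was not tested. The E-box sites nearest to the start of a helicase gene, a PIWI gene and a Tudor gene are printed as examples from 3 classes of member, with the E-box in capitals.
Ddx4, chr13:112652323-112652350, minus strand: gcgtccgcccgCACGTGcagccgtttaa
Piwil1, chr5:128736081-128736108, plus strand: tcagggcccagCACGTGtccacctcgcc
Tdrd1, chr19:56826187-56826214, plus strand: ggggctgcgcgCACGTGggagtaaactg
For Piwil1 the RefSeq window (chr5:128735996-128736295) lies inside the GENCODE gene span, which starts upstream at chr5:128702524. The start used in oocytes was not measured. Mael, Mov10l1 and Tdrd9 also held the E-box. The E2F motif TCCCGC, searched on both strands, was in the windows of Ddx4 and Mael (20.0% of all windows), and the MYB motif TAACNG was in those of Mael, Mov10l1, Piwil1 and Tdrkh (23.3%). No matches of different motifs overlapped. No window was listed for Piwil2. The genes with an E-box included Ddx4, which was higher in KO, and 5 genes that were lower.

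**Figure D1:**
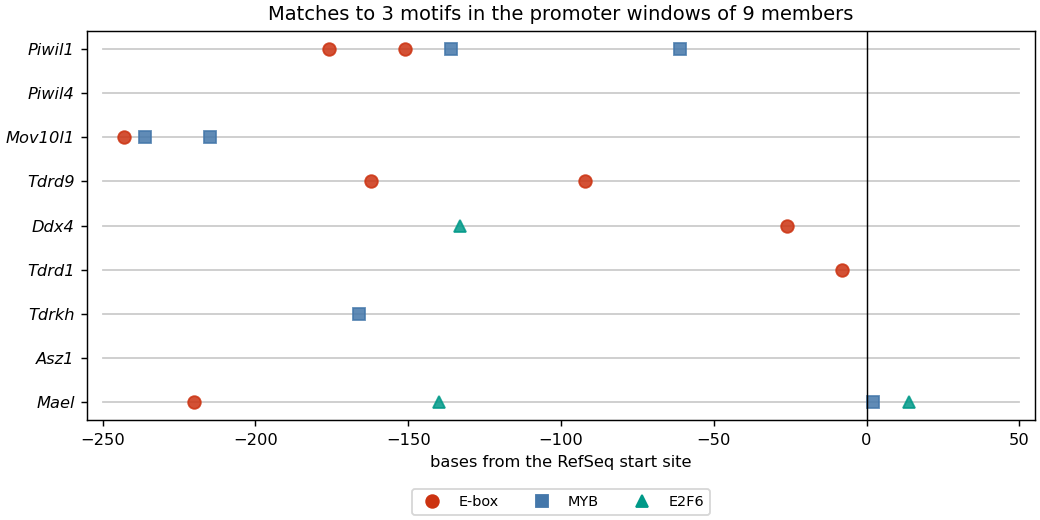
Positions of the E-box, E2F and MYB motifs in the RefSeq promoter windows of 9 member genes, as bases from the annotated start site; where a gene has several starts, a site is drawn once, at its centre, and the vertical line is the start site. Ddx4, Mael, Mov10l1, Piwil1, Tdrd1 and Tdrd9 hold an E-box, whose first base lies between positions -246 and -11.

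The PIWI proteins bind the piRNAs themselves, and the transcripts of 2 of them differed in opposite directions. Piwil2 (ENSMUSG00000033644, GRCm38 chr14:70372477-70429383, minus strand) encodes MILI, the PIWI protein of fetal and adult male germ cells that cuts transposon RNA, and which is also made in oocytes. It was at 11.3, 7.35, 11.97 and 7.28 CPM in the control libraries 1 to 4 and at 28.2, 26.0, 28.4 and 35.3 CPM in the KO libraries. Every KO library was thus above every control library, and the mean rose from 9.48 ± 2.52 to 29.5 ± 4.03 CPM (SD, n = 4), a log2 fold change of 1.63 (SE 0.19, adjusted p = 2.72e-05 in the quasi-likelihood test of edgeR, adjusted by Benjamini-Hochberg over all 19241 genes tested). Piwil1 (ENSMUSG00000029423, chr5:128702524-128755474, plus strand) encodes MIWI, which acts in meiotic and later male germ cells. Its levels were 33.8, 38.5, 26.5 and 36.4 CPM in control and 21.2, 19.8, 19.24 and 15.6 CPM in KO. The groups did not overlap, and the KO mean of 18.9 ± 2.38 CPM was 56.0% of the control mean of 33.8 ± 5.25 CPM (SD, n = 4, log2 fold change -0.84, SE 0.15, adjusted p = 0.000656 with edgeR), short of the 2-fold threshold. Piwil4 (ENSMUSG00000036912, chr9:14696230-14740733, minus strand) encodes MIWI2, the nuclear PIWI protein of fetal male germ cells. It was near the floor, with 8, 3, 4 and 2 counts in control and 0, 4, 3 and 16 counts in KO, so a difference was not detectable at this depth (log2 fold change 0.48, SE 0.68, adjusted p = 0.572 with edgeR). Its sign turned when KO library 4 was left out (log2 fold change -0.30, adjusted p = 0.760).

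The ratio of Piwil2 to Piwil1 within a library was computed after their values had been seen, as a description that does not depend on scaling between libraries. Per kb of the longest protein-coding transcript, Piwil2 was at 0.274, 0.156, 0.370 and 0.163 times the level of Piwil1 in the control libraries and at 1.09, 1.07, 1.20 and 1.85 times in the KO libraries. Per kb, the order of the PIWI transcripts was therefore Piwil1 over Piwil2 in each control library and Piwil2 over Piwil1 in each KO library. The smallest KO ratios, 1.07 and 1.09, depend on the transcript lengths used, and the isoforms present in oocytes were not measured.

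**Figure D2:**
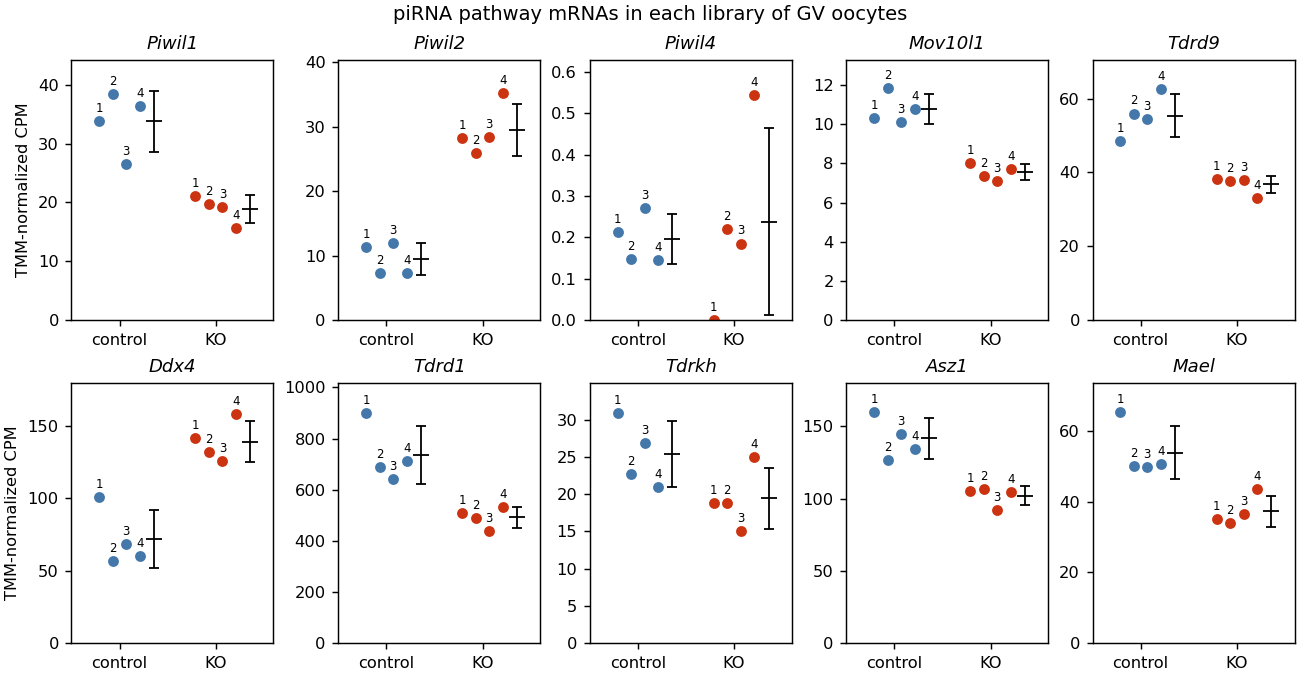
TMM-scaled CPM of each of the 10 member genes, each on an axis of its own that starts at 0, in the 4 control and 4 KO libraries. Numbered points are libraries, and the black marks give the mean and SD of each group. Piwil2 and Ddx4 lie higher in every KO library, 6 genes lie lower in every KO library, and Piwil4 and Tdrkh overlap.

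Of the RNA helicases of the pathway, Ddx4 was higher and Mov10l1 and Tdrd9 were lower in KO. Ddx4 (ENSMUSG00000021758, chr13:112598333-112652475, minus strand), the mouse Vasa homolog and a defining protein of the nuage, was at 101, 57.0, 68.6 and 60.2 CPM in control and at 142, 132, 126 and 158 CPM in KO libraries. The lowest KO library was above the highest control library, control 1, which stood apart from the other 3. The means were 71.7 ± 20.2 and 139 ± 14.1 CPM (SD, n = 4), with a log2 fold change of 0.96 (SE 0.17, adjusted p = 0.000553 with edgeR), just under the 2-fold threshold. The call depended on that threshold: the fold change passed it without control library 1 (log2 1.17), without KO library 2 (1.02), and without KO library 3 (1.04). Mov10l1 (ENSMUSG00000015365, chr15:88982909-89055152, plus strand), which brings piRNA precursors into the pathway, was at 10.3, 11.8, 10.1 and 10.8 CPM in control and 8.03, 7.36, 7.09 and 7.73 CPM in KO. Its groups were narrow and did not overlap, and the KO mean was 70.1% of control (log2 fold change -0.51, SE 0.15, adjusted p = 0.0108 with edgeR). Tdrd9 (ENSMUSG00000054003, chr12:111971559-112068854, plus strand), a helicase with a Tudor domain that acts with MIWI2, was at 48.6, 55.9, 54.5 and 62.6 CPM in control and 38.2, 37.7, 37.9 and 33.1 CPM in KO. It too was lower in every KO library, at 66.2% of the control mean (log2 fold change -0.59, SE 0.12, adjusted p = 0.00125 with edgeR).

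The Tudor proteins bind methylated arginines of PIWI proteins. Tdrd1 (ENSMUSG00000025081, chr19:56826209-56870012, plus strand), a partner of MILI in the granules between mitochondria, was the most abundant member, at 901, 690, 644 and 711 CPM in control and 507, 488, 437 and 533 CPM in KO libraries. All KO libraries were below all control libraries, with means of 736 ± 113 and 491 ± 40.8 CPM (SD, n = 4, 66.7% of control, log2 fold change -0.58, SE 0.12, adjusted p = 0.00155 with edgeR). Tdrkh (ENSMUSG00000041912, chr3:94413273-94434668, plus strand), a mitochondrial Tudor protein needed to trim piRNA 3′ ends, was at 30.9, 22.7, 26.9 and 20.97 CPM in control and 18.8, 18.8, 15.0 and 25.0 CPM in KO. KO library 4 lay within the control range, and the difference did not pass (log2 fold change -0.38, SE 0.18, adjusted p = 0.0873 with edgeR). Without KO library 4 the adjusted p was 0.0182, with a log2 fold change of -0.51. Oaz3 lies on the opposite strand of Tdrkh with 10 to 83 counts per library, and since the strand setting of the counting is not given in the sources used here, reads of the pair could be shared.

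Asz1 and Mael complete the set. Asz1 (ENSMUSG00000010796, chr6:18050964-18109061, minus strand) encodes GASZ, a mitochondrial scaffold protein of the nuage. It was at 160, 127, 145 and 135 CPM in control and 105, 107, 92.4 and 104 CPM in KO libraries, again without overlap, and the KO mean was 72.1% of control (log2 fold change -0.47, SE 0.11, adjusted p = 0.00302 with edgeR). Mael (ENSMUSG00000040629, chr1:166201201-166238747, minus strand), which encodes maelstrom, a nuage protein required for transposon repression in male germ cells, was at 65.2, 49.98, 49.7 and 50.6 CPM in control and 35.2, 33.8, 36.4 and 43.6 CPM in KO. Control library 1 stood above the other 3 control libraries, but these were also above every KO library, and the KO mean was 69.1% of control (log2 fold change -0.53, SE 0.14, adjusted p = 0.00544 with edgeR). Ddx4 and Mael were compared within libraries after their values had been seen: per kb, Ddx4 was at 0.870, 0.641, 0.774 and 0.667 times the level of Mael in control and at 2.26, 2.19, 1.94 and 2.04 times in KO libraries.

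All 10 members passed the filter on low counts, Piwil4 with only 4 libraries at 0.2 CPM or more. At a false discovery rate of 0.05 and a fold change of 2, 1 of the 10 was higher in KO (Piwil2) and 0 were lower, while 23.8% of the 19241 genes tested were higher and 6.56% were lower. Without the fold threshold, at an adjusted p of at most 0.05 with edgeR, 2 members were higher (Piwil2 and Ddx4) and 6 were lower (Piwil1, Tdrd9, Tdrd1, Mov10l1, Asz1 and Mael), against 31.2% and 24.1% of all genes. The same 2 and 6 members had groups that did not overlap, against 27.0% of all genes that were higher in every KO library and 21.4% that were lower. For each of these 8 members the exact permutation test gave p = 0.0286, two-sided, the smallest that 4 against 4 libraries allow. Any gene without overlap gives this value, so it restates the absence of overlap, and it is not adjusted for the number of genes. The median log2 fold change was -0.49 over the members and 0.12 over all genes. Fold changes in these libraries fell with the level of the gene. The median was -0.17 for genes from 10 to under 100 CPM, where 5 members lay, and 12.7% of these genes were higher and 8.3% lower past both thresholds. For genes of at least 100 CPM, where Tdrd1, Asz1 and Ddx4 lay, the median was -0.37, with 1.58% higher and 6.05% lower. From 1 to under 10 CPM the shares were 35.7% and 8.23%. The shares over all genes given here and beside the other gene lists were not matched for level.

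**Figure D3:**
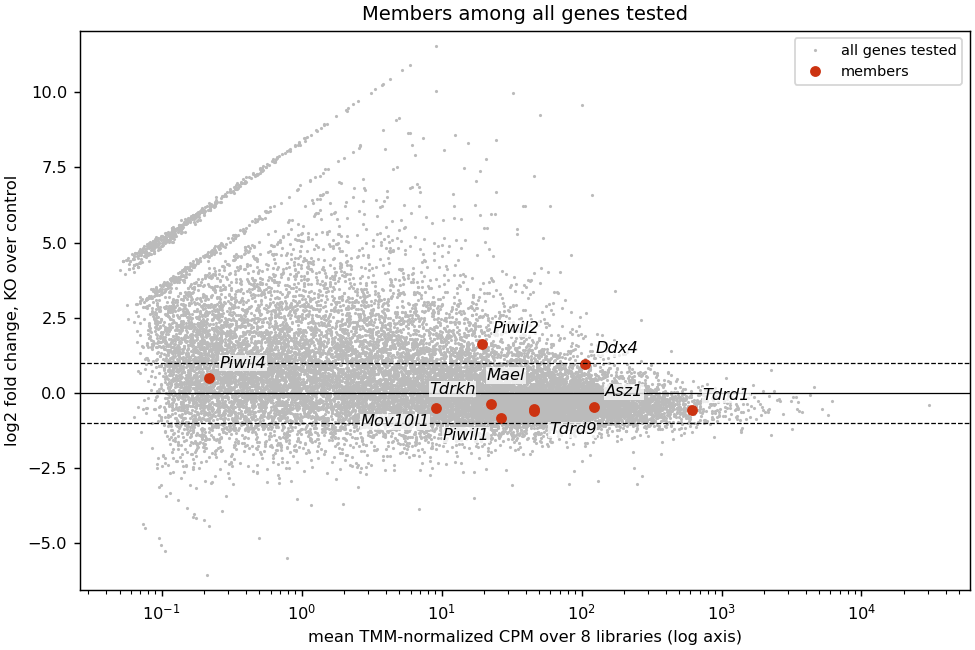
Log2 fold change (KO minus control) against mean CPM (log axis) of all 19241 genes tested, in gray, with the 10 members named. Dashed lines mark a 2-fold change. Piwil2 (1.63), Ddx4 (0.96) and Piwil4 (0.48) lie above 0, and the other 7 members lie between -0.84 and -0.38.

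The scaling of the libraries decided how many members were called lower. With TMM, 31.2% of all genes tested were higher and 24.1% lower at an adjusted p of at most 0.05 with edgeR. The assumption of TMM that most genes do not change may therefore not hold in these data. Scaling by total counts alone raised the median log2 fold change of all genes from 0.12 to 0.40 and the share of higher genes among all called from 78.4% to 90.6%, and only Piwil1 (-0.56) and Tdrd1 (-0.30, adjusted p = 0.0204 with edgeR) were then still past an adjusted p of 0.05, while Mael, Tdrd9, Mov10l1 and Asz1 lay between -0.19 and -0.32. With TMM factors taken from genes of at least 10 CPM (median 0.37, 89.8% of calls higher), Piwil1, Tdrd1, Tdrd9 and Asz1 were past it. The sign of these 6 genes was negative under all 18 other settings. Piwil2 stayed past both thresholds in all 18, with a log2 fold change of 1.53 to 1.92, and Ddx4 reached 1.25 with total counts alone and so passed the 2-fold threshold. In such bulk samples, fewer oocytes of a type and less RNA per oocyte cannot be told apart, nor can a change of total RNA per oocyte be seen.

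**Figure D4:**
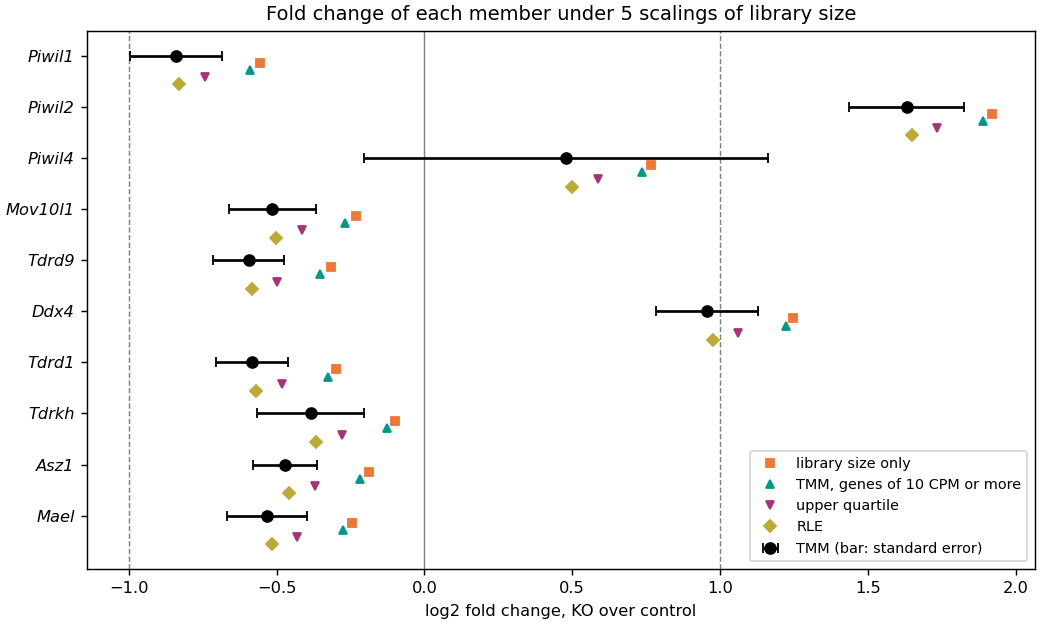
Log2 fold change (KO minus control) of each member under 5 scalings of library size, with the SE drawn for TMM and dashed lines at a 2-fold change. The spread between scalings is about the same for every gene, and Piwil2 and Ddx4 stay above 0 while Piwil1, Tdrd1, Tdrd9, Mov10l1, Asz1 and Mael stay below 0 throughout.

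Levels can be compared between genes only per transcript length, for which CPM was divided by the length of the longest protein-coding transcript in kb. In control oocytes the order was Tdrd1 (142 ± 21.9 CPM per kb), Asz1 (81.6 ± 8.28), Mael (31.9 ± 4.47), Ddx4 (23.8 ± 6.70), Tdrd9 (11.5 ± 1.19), Piwil1 (8.42 ± 1.31), Tdrkh (4.46 ± 0.783), Mov10l1 (2.61 ± 0.184), Piwil2 (1.93 ± 0.512) and Piwil4 (0.0590 ± 0.0183), all SD with n = 4. Of the neighbours in this order only Mael and Ddx4 overlapped between libraries. In KO oocytes Ddx4, at 46.3 CPM per kb, was above Mael at 22.0, and Piwil2, at 5.99, was above Piwil1 at 4.72, which overlapped Tdrkh at 3.41. Piwil2 also overlapped Tdrd9, at 7.63 CPM per kb, in the KO group. Among 19126 genes with a transcript length, Piwil2 went from percentile 48.0 in control to 61.0 in KO, Ddx4 from 81.8 to 91.9, and Piwil1 from 67.0 to 57.0. Tdrd1 was at percentile 97.2 in control oocytes.

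A further 20 genes of the pathway, taken from a list, were all tested. Of these, 3 rose, 2 fell and 15 did not pass at an adjusted p of 0.05 and 2-fold, beside 23.8% of all genes that were higher and 6.56% that were lower, and their median log2 fold change was -0.25. Gpat2, a mitochondrial acyltransferase-like protein that takes part in making piRNAs with MILI, was at 6.36, 5.33, 6.33 and 6.99 CPM in control and 20.6, 19.5, 22.0 and 17.3 CPM in KO (log2 fold change 1.67, SE 0.15, adjusted p = 4.2e-06 with edgeR). Wdr77, the partner of the arginine methyltransferase PRMT5 that methylates PIWI proteins, was low in both groups, with a mean of 0.564 ± 0.459 CPM in control and 2.28 ± 0.488 CPM in KO (SD, n = 4, log2 fold change 1.89, SE 0.45, adjusted p = 0.00353 with edgeR). Tdrd6, a Tudor protein of the chromatoid body, was at 3.63 ± 0.670 CPM in control and 7.48 ± 1.85 CPM in KO (SD, n = 4, log2 fold change 1.05, SE 0.22, adjusted p = 0.00185 with edgeR), and fell short of 2-fold without control library 3 or without KO library 4.

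Of the 2 that fell, Tex15, which acts in the nucleus with MIWI2, was at 507, 318, 374 and 295 CPM in control and 110, 92.1, 72.8 and 109 CPM in KO libraries. Its lowest control library was more than 2-fold above its highest KO library, and its log2 fold change was -1.96 (SE 0.19, adjusted p = 4.72e-06 with edgeR). Stk31, a kinase-like protein with a Tudor domain, was at 159 ± 25.2 CPM in control and 75.4 ± 12.2 CPM in KO (SD, n = 4, log2 fold change -1.08, SE 0.15, adjusted p = 6.87e-05 with edgeR), and it was no longer past 2-fold without control library 1 or without KO library 3. Mybl1, which encodes A-MYB, was at 84.4 ± 11.7 CPM in control and 103 ± 13.8 CPM in KO (SD, n = 4, log2 fold change 0.29, SE 0.13, adjusted p = 0.0827 with edgeR), and its groups overlapped. Without the fold threshold, 5 of the 20 were higher (adding Gtsf1l and Prmt5) and 8 were lower (adding Fkbp6, Gtsf1, Rnf17, Spocd1, Tdrd12 and Tdrd5), beside 31.2% and 24.1% of all genes.

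**Figure D5:**
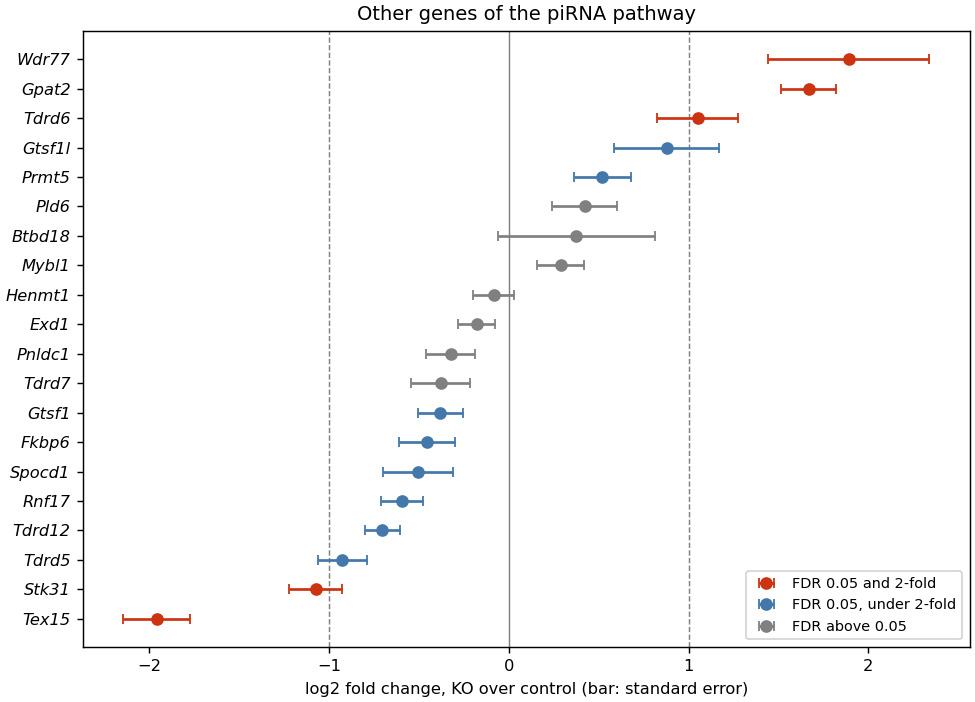
Log2 fold change (KO minus control) with SE of the 20 other piRNA pathway genes from the fit over all genes. Dashed lines mark a 2-fold change. Genes past both thresholds are in red (Wdr77, Gpat2 and Tdrd6 higher, Tex15 and Stk31 lower), genes past the false discovery rate alone in blue, and the rest in gray.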

How the data were processed

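RNA of 8 libraries (4 Zp3-Cre control, 4 CNOT7&8 KO) was analyzed, grouped by the deposited labels. The authors mapped 150-bp read pairs to GRCm38 with STAR 2.6.1d under nf-core/rnaseq, and the counts per gene were deposited raw. Per the labels the kit was a stranded total RNA kit with ribosomal RNA removal, while the methods of the paper name a stranded mRNA kit, also used with ribosomal RNA depletion. The counting tool, annotation and strand setting are not given in the sources used here.

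Genes were tested if 2 libraries or more reached 0.2 CPM (19241 of 46078; 28353 had a count). Library sizes were scaled by TMM, and groups were compared with the quasi-likelihood test of edgeR 4.0.16 (R 4.3.3, limma 3.58.1), with Benjamini-Hochberg adjustment over all genes tested. Genes passed at a false discovery rate of 0.05 and a 2-fold change, the thresholds of the paper. Single genes were also compared by an exact permutation test over 70 assignments (log2 of CPM + 0.5). The test was tested on simulated data. Alternatives were the exact test of edgeR, DESeq2 1.42.0, 4 other scalings, other filters, a replicate block, and libraries left out. Coordinates, lengths and 3′UTRs came from GENCODE vM21 (98.0% of gene IDs matched), promoters from RefSeq. Figures were drawn with matplotlib 3.10.9 in Python 3.11.15.

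The 10 members and all gene lists were chosen with earlier results of these data known. Named were all members, Cnot7, Cnot8, Mybl1, E2f6 and, of each list, up to 5 genes past both thresholds, by size of change, with a mean of at least 1 CPM. Other genes, given as further examples, were chosen after their values were seen. Within groups, every pair of libraries differed beyond counting noise. Chi-square per degree of freedom was 140 to 210 between control library 1, the deepest, and the other controls, 7.85 to 17.7 among those, and 20.2 to 91.2 among KO libraries. Control and KO libraries of the same number did not deviate together (r of -0.15, -0.10, 0.24 and -0.28), so the numbers were not taken as pairs.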

Additional observations from a re-analysis of the deposited data

Results flagged for a closer look

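A library far from the others of its group was found in 3 of 24 groups of 4 libraries examined (12 genes in 2 groups), where chance gives about 1.2. Mael was at 65.2 CPM in control library 1, with the other 3 control libraries between 49.7 and 50.6 CPM. Tdrd9 was at 33.1 CPM in KO library 4, with the others between 37.7 and 38.2 CPM. Cnot7 was at 1048 CPM in control library 1, with the others between 886 and 900 CPM. Control library 1 was the deepest, with 44092144 counts. Without control library 1 and KO library 4, Mael and Tdrd9 were still lower in KO at an adjusted p of at most 0.05 with edgeR.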

How the results depend on the processing

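The count of members higher in KO was 1 and became 2, with Ddx4 added, under scaling by library size only, upper quartile scaling, TMM factors from genes averaging 10 CPM or more, a filter of 1 CPM in 4 libraries, leaving out control library 1 together with KO library 4, and the false discovery rate of 0.05 alone. Leaving out 1 library gave 1 to 2. The count lower in KO was 0 in all of these except 6 at the false discovery rate alone. Of the 20 other pathway genes, 5 were higher and 8 lower at the false discovery rate alone. Those lower were 1 instead of 2, without Stk31, under scaling by library size only, upper quartile scaling, the TMM of abundant genes, and without control library 1 and KO library 4, and 1 to 2 with 1 library left out. With 1 library left out Piwil4 ranged from -0.30 (reversed, without KO library 4) to 0.79, and it was reversed to -0.26 without that library and control library 1. The causes were not tested. Scaling by library size only called 5641 genes higher and 588 lower (90.6% of calls higher, against 78.4% with TMM), and the TMM of abundant genes called 5495 and 627 (89.8%). With no filter on low counts the median of all genes was 0.39, and with the filter of 1 CPM in 4 libraries 2882 genes were higher. With a replicate block, which treats equal numbers as pairs although they did not deviate together, 1 member was higher and 0 were lower, Piwil2 had a log2 fold change of 1.66, no call of a member changed, and 4316 genes were higher and 1254 lower. Control library 1 correlated best with KO library 4 (r = 0.59) and not with its own number. These were the deepest libraries of their groups, with 44092144 and 26784110 counts, and the part of depth was not tested. Depth limited Piwil4, with 40 counts in all, and no statement is made on its direction.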

Other observations

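Transposons are also silenced in chromatin, and of 21 genes of such a list, 3 rose and 2 fell past both thresholds, with a median log2 fold change of -0.0048, beside 23.8% of all genes tested that were higher and 6.56% that were lower. Tex19.1 and Tex19.2, germline genes whose promoters are kept silent elsewhere by DNA methylation, were both higher. Tex19.2 was at 5.80, 5.67, 7.21 and 3.20 CPM in control and at 98.7, 70.2, 130 and 92.1 CPM in KO (log2 fold change 4.15, SE 0.25, adjusted p = 1.76e-07 with edgeR). Tex19.1, which restrains retrotransposons in the germline, rose from 131 ± 10.98 to 361 ± 38.5 CPM (SD, n = 4, log2 fold change 1.46, adjusted p = 1.04e-06 with edgeR). As paralogs these may share reads. Ehmt2, a histone H3K9 methyltransferase, rose from 2.78 ± 0.447 to 9.59 ± 2.57 CPM (SD, n = 4, log2 fold change 1.79, adjusted p = 6.34e-05 with edgeR). Dnmt1, the maintenance DNA methyltransferase, fell from 4421 ± 334 to 1919 ± 196 CPM (SD, n = 4, log2 fold change -1.20, adjusted p = 3.79e-06 with edgeR). Uhrf1, which recruits DNMT1 to DNA, fell from 895 ± 146 to 410 ± 96.2 CPM (SD, n = 4, log2 fold change -1.13, adjusted p = 0.000164 with edgeR). Both Dnmt1 and Uhrf1 were short of 2-fold under scaling by library size only and under TMM on genes of at least 10 CPM, with log2 fold changes down to -0.92 and -0.85.

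Among 7 repressors of germline genes, 1 passed both thresholds as higher, against 23.8% of all genes: Ring1, a Polycomb protein (0.945 ± 0.468 to 2.28 ± 0.463 CPM, SD, n = 4, log2 fold change 1.28, adjusted p = 0.00731 with edgeR), 0 passed as lower, and the median log2 fold change was 0.35. Mga was at 163 ± 48.1 CPM in control and 262 ± 53.6 CPM in KO (SD, n = 4), with overlap and short of 2-fold (log2 fold change 0.69, SE 0.19, adjusted p = 0.00967 with edgeR). E2f6 was at 3.20 ± 0.435 CPM in control and 4.12 ± 0.984 CPM in KO (SD, n = 4, adjusted p = 0.216 with edgeR). Of 4 genes of the endogenous siRNA pathway, 1 passed as higher, near the same share of all genes: Prkra, a partner of Dicer (1.47 ± 0.401 to 3.40 ± 0.809 CPM, SD, n = 4, log2 fold change 1.17, adjusted p = 0.00354 with edgeR). The other 3 were short of 2-fold: Dicer1 was higher (892 to 1265 CPM, log2 fold change 0.50), and Ago2 (52.8 to 37.5 CPM, -0.49) and Tarbp2 (43.2 to 26.5 CPM, -0.71) were lower, each at an adjusted p of at most 0.05 with edgeR. Over all genes, 31.2% were higher and 24.1% lower at that adjusted p.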
